A study of Mus musculus with 9 samples.

Results

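The 9 genes described here encode 6 chemokines (Cxcl1, Cxcl2, Cxcl12, Cxcl14, Cxcl16 and Cx3cl1) and 3 chemokine receptors (Ccr1, Cxcr4 and Ackr3). They were taken by gene symbol from a mouse cortex RNA-seq table of 37893 genes, and each symbol matched 1 entry. Chemokines are small proteins that direct leukocyte movement by binding receptors that couple to G proteins, and the CXC and CX3C classes are named for the spacing of their first conserved cysteines. In brain, some members act mainly as inflammatory signals that recruit blood leukocytes to injured tissue (Cxcl1, Cxcl2), whereas others are made constitutively by neurons, glia or vessels (Cx3cl1, Cxcl12, Cxcl14). Ackr3 binds Cxcl12 without classical G protein signalling and clears it, so Cxcl12, Cxcr4 and Ackr3 form one axis.

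Libraries fall into 3 groups of 3, each library labelled as a separate replicate. IR_Matn3_ko libraries came from the peri-infarct cortex of Matn3 knockout mice after 60 min of middle cerebral artery occlusion and 1 day of reperfusion, IR_WT libraries from the same area in wild-type mice after the same injury, and sham_WT libraries from the cerebral cortex of wild-type mice after sham surgery. Matn3 encodes matrilin-3, an extracellular matrix protein known mainly from cartilage. The ischemic samples are labelled as peri-infarct area and the sham samples as cortex, so injury and the area taken cannot be told apart in that comparison. No uninjured knockout group was analysed here, the knockout allele is not described in the sources used here, and the p-values measure the spread between 3 libraries a group.

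Libraries held 53400376 to 68370527 counts, and the 17247 genes reaching 0.5 FPKM (fragments per kilobase of gene, scaled to mapped fragments) in 3 or more libraries were tested together. Matn3 itself had 0, 17 and 0 counts in the IR_Matn3_ko libraries, 33, 12 and 48 in IR_WT and 0, 4 and 26 in sham_WT, too few to check the labels, and the second knockout library is called here the library labelled IR_Matn3_ko 2. Neuronal markers summed to 5405 to 6808 CPM (counts scaled to a common library size) in IR_Matn3_ko, 6559 to 7759 CPM in IR_WT and 8086 to 8263 CPM in sham_WT, so all libraries carried neuronal transcripts, though no marker particular to cortex was examined. The libraries fell into sets that did not follow the groups. Small-intestine markers summed to 100.6 to 464.8 CPM in all IR_Matn3_ko libraries and in IR_WT 2 and 3, against 4.40 to 7.41 CPM in IR_WT 1 and all sham_WT libraries. B cell and lymphoid markers ran the other way, at 4.34 to 10.2 CPM where intestinal markers were high and 71.1 to 105 CPM where they were low. Keratinocyte markers ran as the lymphoid ones did, at 6.59 to 8.88 CPM and 42.4 to 103 CPM in these sets. IR_WT is the only group with libraries in both sets, and its results below are also given with the set as a term in the model where that changed a call. With that term IR_WT against sham_WT compares the single library IR_WT 1 with the 3 sham_WT libraries, and IR_Matn3_ko against IR_WT compares 3 libraries with IR_WT 2 and 3, each assumed to vary like the others.

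Between IR_WT and sham_WT, 3 of the 9 genes rose (Cxcl1, Cxcl16 and Ccr1), 2 fell (Cxcl12 and Cx3cl1), and Cxcl2, Cxcl14, Cxcr4 and Ackr3 did not pass the test. The threshold was 0.05 on p-values from the quasi-likelihood test of edgeR, adjusted by Benjamini-Hochberg over all 17247 genes, of which 4.06% passed (2.54% higher and 1.52% lower). The 3 IR_WT and 3 sham_WT libraries did not overlap for 6 of the 9 genes, 3 higher and 3 lower, against 25.6% of all genes tested (13.1% higher and 12.5% lower). The median log2 difference over the 9 genes was -0.01, against 0.00 over all genes tested, with genes on both sides of 0. Between IR_Matn3_ko and IR_WT, 0 of the 9 genes and 0% of the 17247 genes passed. At an unadjusted p under 0.05 in the same test there were 6 of the 9 genes and 2302 genes in all (13.3%). DESeq2 called 668 genes, among them Cxcl1 and Ccr1, and limma on log2(FPKM + 1) called 38 genes, none of them among the 9. The IR_Matn3_ko and IR_WT libraries did not overlap for 5 of the 9 genes, 3 higher and 2 lower, against 17.8% of all genes (9.37% higher and 8.47% lower). Both comparisons use the same IR_WT libraries, so a low or high IR_WT library enters both. All 9 genes passed the filter on low values, but for Cxcl1, Cxcl2, Cxcl16 and Ccr1 no sham_WT library reached 0.5 FPKM, so these 4 were tested only because of their level in ischemic libraries. Of the IR_WT libraries, 2 reached it for Cxcl1 and 1 for Cxcl2, so both genes needed IR_Matn3_ko libraries to be tested.

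**Figure D1:**
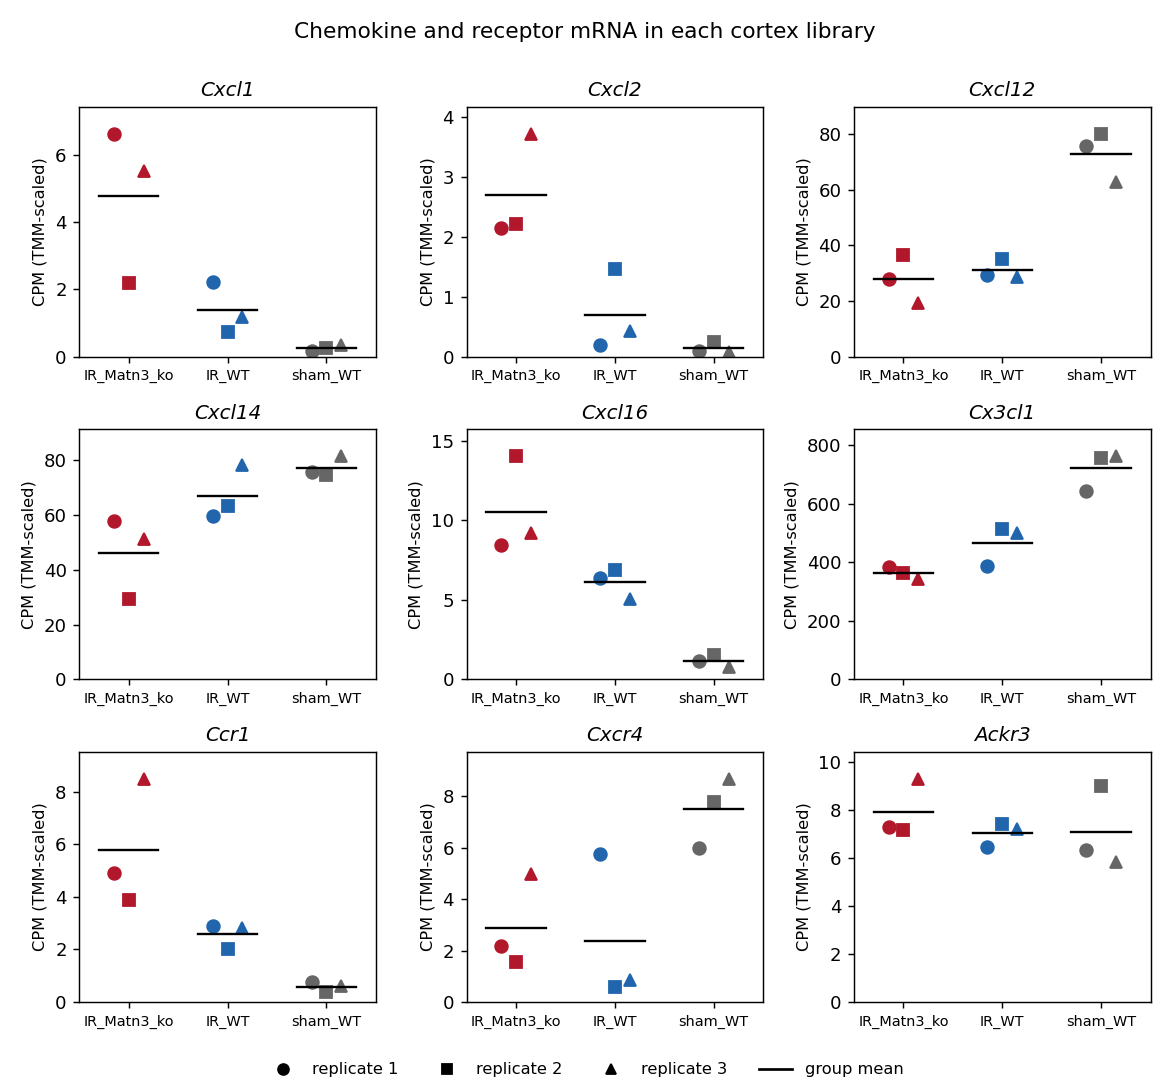
CPM of each of the 9 genes (vertical axis from 0, scaled by TMM library factors, one panel a gene) in the 3 libraries of IR_Matn3_ko, IR_WT and sham_WT, with symbols for replicates 1 to 3 and a bar for the group mean. Sham libraries lie lowest for Cxcl16 and Ccr1 and highest for Cxcl12 and Cx3cl1, and the first IR_WT library lies at 5.74 CPM for Cxcr4 beside 0.570 and 0.840 CPM in the others.

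Cxcl1 and Cxcl2 are neighbouring genes on mouse chromosome 5 (GRCm38, chr5:90891241-90893115 and chr5:90903871-90905938, both on the + strand) whose products attract neutrophils through the receptor Cxcr2. Both are classical targets of the transcription factor NF-kappaB. The 130 bases before each RefSeq start (GRCm38.p6, + strand) are shown because the genes lie side by side and share short elements, with the same window of Cxcl12, which fell, for comparison. Capitals mark a kappaB-like sequence (GGGA, any base, then TTTCC) and the TATA-like run CATAAAAG, which was picked out after the promoters had been read. The windows are chr5:90891115-90891244, chr5:90903769-90903898 and chr6:117168405-117168534. Both chr5 windows end inside the gene bounds given above, further in for Cxcl2, so distances from the start depend on the start used.
Cxcl1: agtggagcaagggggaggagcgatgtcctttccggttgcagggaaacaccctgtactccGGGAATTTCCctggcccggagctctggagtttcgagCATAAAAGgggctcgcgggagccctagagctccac
Cxcl2: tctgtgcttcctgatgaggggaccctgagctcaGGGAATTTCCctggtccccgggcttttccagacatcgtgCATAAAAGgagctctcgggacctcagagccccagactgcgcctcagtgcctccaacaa
Cxcl12: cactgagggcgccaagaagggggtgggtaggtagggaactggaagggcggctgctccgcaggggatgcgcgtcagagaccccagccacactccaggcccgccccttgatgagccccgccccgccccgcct

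In the 250 bases before the RefSeq start, searched on both strands, the kappaB-like sequence was found in Cxcl1 (-71 to -62 from that start) and Cxcl2 (-97 to -88) and in no other of the 8 matched promoters. Of 32851 RefSeq mouse promoters, 117 hold it (0.356%), including Cxcl3 and Ccr3 among the other chemokine genes listed. It was in 0 of 4 matched promoters of the CC ligands of Ccr1, and not in that of Ccr1, which rose. CATAAAAG lay at -35 to -28 in Cxcl1 and -58 to -51 in Cxcl2, and 292 promoters (0.889%) hold it. The pair of motifs do not overlap each other. TATAAA was found in Ackr3, Cx3cl1 and Cxcr4 (12.4% of all promoters), TTCNNNGAA, a STAT-like sequence, in Cxcl14 (7.02%), and TGANTCA, an AP-1-like sequence, in none of the 8 (6.75%). These matches describe letters in a window and say nothing of binding.

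Cxcl1 had 6.62, 2.19 and 5.50 CPM in the IR_Matn3_ko libraries, 2.21, 0.740 and 1.19 CPM in IR_WT and 0.178, 0.258 and 0.339 CPM in sham_WT. These rest on 414, 156 and 352 counts in IR_Matn3_ko, 129, 52 and 75 counts in IR_WT and 9, 14 and 18 counts in sham_WT. Every ischemic library stood above every sham library, and the library labelled IR_Matn3_ko 2 fell just under the highest IR_WT library. Against sham_WT, Cxcl1 rose in IR_WT 5.29-fold (log2 difference 2.40 ± 0.54 SE, edgeR adjusted p = 0.0401, n = 3 libraries each). That call sits near the threshold: it held in 3 of 9 fits that left out 1 library (adjusted p 0.0173 to 0.159), being lost without any 1 sham_WT library, IR_WT 1, IR_WT 3 or IR_Matn3_ko 3. It was also lost with no filter on low values (adjusted p = 0.0752) and in limma on log2(FPKM + 1) (0.215) and log2(FPKM + 0.1) (0.0603). Between IR_Matn3_ko and IR_WT the group means were 4.77 ± 2.30 and 1.38 ± 0.754 CPM (SD, n = 3 each), and the log2 difference of 1.79 ± 0.48 did not pass in edgeR (adjusted p = 0.169, 95% interval 0.71 to 2.87). DESeq2 gave it an adjusted p of 0.0137.

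Cxcl2 had 2.14, 2.22 and 3.72 CPM in IR_Matn3_ko, 0.189, 1.47 and 0.428 CPM in IR_WT and 0.0987, 0.240 and 0.0752 CPM in sham_WT. The knockout libraries were above all others, and the IR_WT libraries overlapped sham_WT because IR_WT 1 (11 counts) was below sham_WT 2 (13 counts). Its log2 difference of 2.32 ± 0.74 between IR_WT and sham_WT was close in size to that of Cxcl1 but did not pass in edgeR (adjusted p = 0.118), whereas DESeq2 gave 0.0214. Over the fits leaving out 1 library it ran from 1.15 without IR_WT 2 to 2.98 without sham_WT 2, and passed in 1 of the 9, without IR_WT 1 (2.76, adjusted p = 0.0297). The set term gave 0.44 with 0.865. The IR_Matn3_ko minus IR_WT difference was 1.94 ± 0.65 (edgeR adjusted p = 0.242, 95% interval 0.50 to 3.38), or 3.11 without IR_WT 2 (0.229).

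Cxcr2, the receptor of both ligands and a neutrophil gene, was looked at after its values had been seen. It had 170, 48 and 138 counts in IR_Matn3_ko, 13, 21 and 27 in IR_WT and 4, 4 and 4 in sham_WT, under the filter in too many libraries to be tested. Fitted with no filter, its log2 difference was 2.53 ± 0.51 between IR_Matn3_ko and IR_WT (edgeR adjusted p = 0.230) and 2.04 ± 0.59 between IR_WT and sham_WT (0.160). The libraries of the 3 groups did not overlap for this gene. The sum of 10 neutrophil markers was 23.8, 12.1 and 24.0 CPM in IR_Matn3_ko, 11.3, 13.9 and 10.4 CPM in IR_WT and 10.1, 10.3 and 12.4 CPM in sham_WT, and 0 of the 4 markers tested passed in either comparison. Most of that sum was Csf3r (9.80 to 17.3 CPM in IR_Matn3_ko, 7.24 to 10.7 in IR_WT, 7.00 to 8.60 in sham_WT), while Camp was at 0 in IR_Matn3_ko, Ly6g at 0 in IR_WT, and Ly6g and Stfa2l1 at 0 in sham_WT. The sum thus follows mainly Csf3r and is no measure of neutrophil number. The part of neutrophil number in the Cxcl1 and Cxcl2 values was not tested.

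Cxcl16 is made as a membrane-bound chemokine that also takes up oxidized lipoproteins, and it is shed as a ligand of Cxcr6. It had 8.43, 14.0 and 9.19 CPM in IR_Matn3_ko, 6.36, 6.88 and 5.05 CPM in IR_WT and 1.16, 1.51 and 0.790 CPM in sham_WT. The 3 groups did not overlap. It rose 5.27-fold in IR_WT against sham_WT (2.40 ± 0.29, edgeR adjusted p = 0.00206), and passed in all 9 fits that left out a library (2.18 to 2.64). The set term, with IR_WT 1 as the only ischemic library compared, gave 2.46 (adjusted p = 0.00882). Means in IR_Matn3_ko and IR_WT were 10.6 ± 3.04 and 6.10 ± 0.940 CPM (SD, n = 3 each) and the difference of 0.79 ± 0.27 did not pass (edgeR adjusted p = 0.249). Cxcl16 (chr11:70453983-70459984, - strand) overlaps Zmynd15 on the opposite strand over 552 bases. Zmynd15 averaged 177 counts in IR_Matn3_ko, 104 in IR_WT and 50.7 in sham_WT, and since it is not given whether the counts use strand, reads of the pair may not be told apart there. Cxcr6, also looked at after its values had been seen, had 0 to 30 counts and no order among the groups, with 4, 8 and 4 counts in IR_Matn3_ko, 22, 8 and 0 in IR_WT and 0, 30 and 11 in sham_WT. Markers of monocytes and macrophages, cells known to make Cxcl16, summed to 65.1 to 83.5 CPM in IR_Matn3_ko, 37.0 to 42.5 CPM in IR_WT and 13.1 to 14.5 CPM in sham_WT. Of the 4 markers of that list tested, 1 rose in IR_WT against sham_WT, where 2.54% of all genes tested rose. Between IR_Matn3_ko and IR_WT, 0 of the 4 passed. The most abundant of the list was Msr1, with 41.5 to 55.9 CPM in IR_Matn3_ko, 14.0 to 28.0 in IR_WT and 0.281 to 0.393 in sham_WT. The part of these cells in the Cxcl16 and Ccr1 values was not tested.

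Cx3cl1, fractalkine, is a neuronal membrane chemokine whose receptor Cx3cr1 marks microglia, and it was the most abundant of the 9 genes. Its libraries held 384, 364 and 345 CPM in IR_Matn3_ko, 387, 515 and 502 CPM in IR_WT and 645, 756 and 763 CPM in sham_WT. All ischemic libraries lay under all sham libraries. In IR_WT it was lower than in sham_WT by 0.62 on the log2 scale (-0.62 ± 0.12, edgeR adjusted p = 0.0207), with means of 468 ± 70.5 CPM in IR_WT and 721 ± 66.0 CPM in sham_WT (SD, n = 3 each). The call was lost without sham_WT 2 (adjusted p = 0.0849) or sham_WT 3 (0.0785) and in limma on log2(FPKM + 1) (0.0508). In bulk tissue such as this, fewer cells of a type and less RNA per cell cannot be told apart. The sum of 8 neuronal markers moved with it, at 5405 to 6808 CPM in IR_Matn3_ko, 6559 to 7759 CPM in IR_WT and 8086 to 8263 CPM in sham_WT. By the test only 1 of the 8 fell in IR_WT, where 1.52% of all genes tested fell. For the knockout comparison the libraries did not overlap (384 CPM the highest in IR_Matn3_ko, 387 CPM the lowest in IR_WT), a gap far smaller than the spread within IR_WT, and the difference of -0.36 ± 0.12 did not pass (edgeR adjusted p = 0.242). On the FPKM scale that gap closes, since the highest IR_Matn3_ko library has 91.1 FPKM and the lowest IR_WT library 89.9 FPKM.

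Cx3cr1 moved the other way. It had 76.1, 83.6 and 59.7 CPM in IR_Matn3_ko, 77.5, 69.5 and 86.1 CPM in IR_WT and 45.0, 48.6 and 51.1 CPM in sham_WT. It rose in IR_WT by 0.69 ± 0.13 (edgeR adjusted p = 0.0188), a call that was lost with the set term (0.0954) and in 4 of the 9 fits leaving out 1 library, those without any 1 sham_WT library or IR_WT 3, and it did not pass between IR_Matn3_ko and IR_WT (-0.09 ± 0.13, adjusted p = 0.824). Microglial markers summed to 333 to 459 CPM in IR_Matn3_ko, 333 to 415 CPM in IR_WT and 308 to 315 CPM in sham_WT. Of 8 microglial markers, 2 rose and 1 fell in IR_WT, where 2.54% of all genes tested rose and 1.52% fell.

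Cxcl12 (SDF-1) is a constitutive chemokine of vessels, meninges and oligodendrocyte lineage cells that signals through Cxcr4 and retains leukocytes and progenitors in tissue. It had 27.9, 36.6 and 19.3 CPM in IR_Matn3_ko, 29.2, 35.0 and 28.8 CPM in IR_WT and 75.5, 80.1 and 62.8 CPM in sham_WT. Every ischemic library was below every sham library, and the IR_WT libraries lay inside the range of the IR_Matn3_ko libraries. It fell in IR_WT to 0.426 of the sham_WT level (-1.23 ± 0.20, edgeR adjusted p = 0.0106), keeping its sign in all 9 fits that left out a library (-1.33 to -1.16). The call was lost without sham_WT 1 (adjusted p = 0.0503) and with the set term (-1.32, 0.0646). Its difference between IR_Matn3_ko and IR_WT was -0.15 ± 0.20 (edgeR adjusted p = 0.804, 95% interval -0.60 to 0.30). Endothelial markers, whose cells are one source of Cxcl12, summed to 270 to 346 CPM in IR_Matn3_ko, 258 to 331 CPM in IR_WT and 238 to 270 CPM in sham_WT, and no ischemic library lay under all sham libraries. Fibroblast and meningeal markers summed to 69.7, 61.5 and 71.6 CPM in IR_Matn3_ko, 111, 36.8 and 45.8 CPM in IR_WT and 19.6, 113 and 111 CPM in sham_WT, so the sum was low in sham_WT 1, where Cxcl12 was high. The most abundant gene of that list, Dcn, ran otherwise than the sum. It had 32.4 to 45.8 CPM in IR_Matn3_ko, 14.3 to 21.6 in IR_WT and 5.62 to 10.9 in sham_WT. The part of either cell type in the Cxcl12 values was not tested, and no oligodendrocyte marker list was examined.

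Cxcl14, a constitutively expressed chemokine, had 58.0, 29.2 and 51.2 CPM in IR_Matn3_ko, 59.7, 63.2 and 78.4 CPM in IR_WT and 75.8, 74.6 and 81.6 CPM in sham_WT. Its range in IR_WT overlapped sham_WT, and no call was made (-0.20 ± 0.21, edgeR adjusted p = 0.650, 95% interval -0.68 to 0.27). The IR_Matn3_ko libraries were all below IR_WT, narrowly for IR_Matn3_ko 1 and furthest for the library labelled IR_Matn3_ko 2. The difference of -0.54 ± 0.21 did not pass (edgeR adjusted p = 0.315). Without the library labelled IR_Matn3_ko 2 it was -0.30. The same library had the lowest sums of astrocyte markers (1196 CPM, against 1895 to 2311 CPM in IR_WT and 1550 to 1732 CPM in sham_WT) and of neuronal markers (5405 CPM). The part of these cell types in the Cxcl14 values was not tested.

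**Figure D2:**
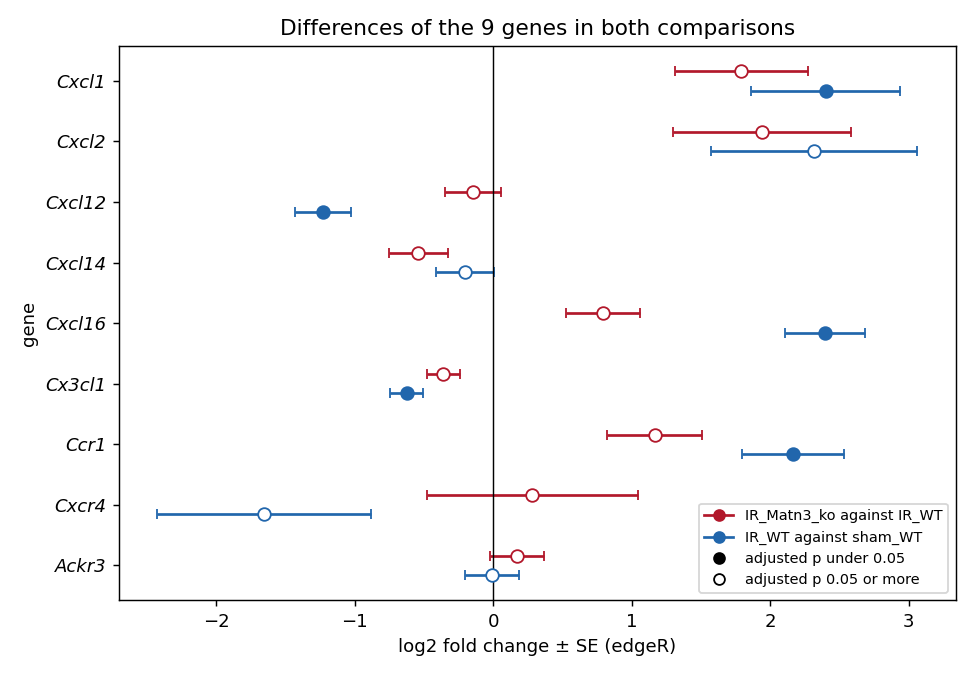
log2 fold change (horizontal axis) of each of the 9 genes in edgeR, IR_Matn3_ko against IR_WT above IR_WT against sham_WT. Bars show the SE on each side, which is narrower than the 95% interval, and filled points an adjusted p under 0.05. Cxcl1, Cxcl16 and Ccr1 lie to the right and Cxcl12 and Cx3cl1 to the left in IR_WT against sham_WT, and no point of the knockout comparison is filled.

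Among the receptors, Ccr1 binds inflammatory CC chemokines and is carried by monocytes, macrophages and neutrophils. It had 4.93, 3.89 and 8.49 CPM in IR_Matn3_ko, 2.88, 2.02 and 2.82 CPM in IR_WT and 0.750, 0.369 and 0.602 CPM in sham_WT. The 3 groups did not overlap. Ccr1 rose 4.48-fold in IR_WT against sham_WT (2.16 ± 0.37, edgeR adjusted p = 0.0117), and in all 9 fits that left out a library (1.93 to 2.40, adjusted p 0.00830 to 0.0494), but not in limma on log2(FPKM + 1), where its adjusted p was 0.0723. The set term, again with IR_WT 1 as the only ischemic library, gave 2.33 (0.0339). Between IR_Matn3_ko and IR_WT the means were 5.77 ± 2.41 and 2.57 ± 0.479 CPM (SD, n = 3 each), a log2 difference of 1.16 ± 0.34 that did not pass in edgeR (adjusted p = 0.195, 95% interval 0.41 to 1.92) and had an adjusted p of 0.0327 in DESeq2.

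Most CC ligands of Ccr1 rose too. Of 6 listed, 5 were tested and 4 rose in IR_WT against sham_WT, where 2.54% of all genes tested rose. The median log2 difference was 3.03 over the 5 against 0.00 over all genes tested. No sham_WT library reached 0.5 FPKM for Ccl7, and not all did for Ccl3, Ccl6 and Ccl9. These 4 therefore passed the filter on low values only with ischemic libraries counted. Ccl3 had 11.6, 15.6 and 13.9 CPM in IR_Matn3_ko, 4.87, 8.91 and 5.73 CPM in IR_WT and 0.671, 0.350 and 0.414 CPM in sham_WT. The 3 groups did not overlap for Ccl3, and it rose by 3.76 ± 0.32 in IR_WT (edgeR adjusted p = 0.000368). Ccl7, a monocyte attractant, rose by 3.95 ± 0.69 (adjusted p = 0.0129), Ccl9 by 3.03 ± 0.40 (0.00320) and Ccl6 by 2.18 ± 0.19 (0.000368) in the same test. Ccl7, with 11, 4 and 0 counts in sham_WT, lost the call without sham_WT 2 (0.0716) and ran to 5.27 without sham_WT 1. The fifth, Ccl5, a T cell chemokine, averaged 0.471 CPM in IR_WT and 1.08 CPM in sham_WT and did not pass (-1.21 ± 0.75, adjusted p = 0.416). In the knockout comparison none of the 5 passed, and their log2 differences were all above 0 with a median of 1.27. Ccl6 had 12.1, 11.6 and 15.9 CPM in IR_Matn3_ko and 5.30, 5.28 and 4.42 CPM in IR_WT. Its adjusted p of 0.0752 was the smallest in that comparison in edgeR, a value that the adjustment also gave to other genes. Ccl9 (1.78 ± 0.36, adjusted p = 0.120) and Ccl3 (1.07 ± 0.27, 0.152) were next among the 5, with adjusted p of 3.07e-05 and 0.00571 in DESeq2.

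Cxcr4 is the signalling receptor of Cxcl12 and is abundant in lymphocytes and other leukocytes. Its libraries held 2.16, 1.55 and 4.96 CPM in IR_Matn3_ko, 5.74, 0.570 and 0.840 CPM in IR_WT and 6.0, 7.78 and 8.67 CPM in sham_WT. IR_WT 1 stood near the sham libraries and the other IR_WT libraries far below, so that the SD in IR_WT (2.91 CPM) exceeded the mean (2.38 CPM). No call was made between IR_WT and sham_WT (-1.66 ± 0.77, edgeR adjusted p = 0.280) or between IR_Matn3_ko and IR_WT (0.28 ± 0.76, 0.913, 95% interval -1.42 to 1.98). Without IR_WT 1 the first difference was -3.41 with an adjusted p of 0.00342, and with the set term it was -0.38 with 0.793. In the knockout comparison the difference was 2.04 without IR_WT 1, and the sign turned without IR_WT 2 (-0.19), IR_WT 3 (-0.12) or IR_Matn3_ko 3 (-0.36), and the set term gave 2.03 (adjusted p = 0.114).

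Lymphoid transcripts were high in the same 4 libraries as Cxcr4. The summed level of 12 B cell and lymphoid markers was 5.59, 10.2 and 5.19 CPM in IR_Matn3_ko, 85.2, 4.34 and 5.19 CPM in IR_WT and 71.1, 105 and 94.6 CPM in sham_WT. The 4 libraries rich in these markers held 5.74 to 8.67 CPM of Cxcr4 and the 5 poor in them 0.570 to 4.96 CPM. The third knockout library was highest for Cxcr4 among the poor ones, at 4.96 CPM with 5.19 CPM of lymphoid markers. None of the 9 lymphoid markers tested passed in either comparison, and none was at 0 in a whole group. Keratinocyte markers were high in the same 4 libraries. The part of lymphoid or keratinocyte RNA in the Cxcr4 values was not tested.

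**Figure D3:**
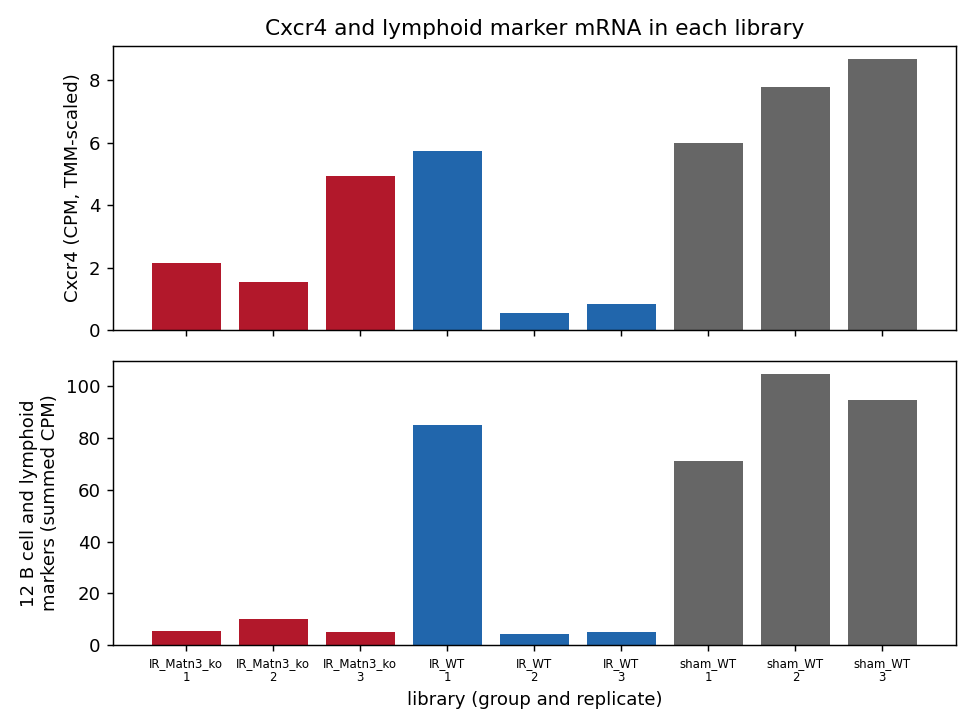
Cxcr4 (upper panel, CPM) and the summed CPM of 12 B cell and lymphoid markers (lower panel) in each of the 9 libraries, as bars from 0, ordered by group (IR_Matn3_ko, IR_WT, sham_WT) and replicate. The 4 libraries with 71.1 to 105 CPM of lymphoid markers are also those with the highest Cxcr4, from 5.74 CPM up.

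Ackr3, the scavenging receptor of Cxcl12, had 7.29, 7.18 and 9.30 CPM in IR_Matn3_ko, 6.48, 7.40 and 7.22 CPM in IR_WT and 6.36, 9.02 and 5.85 CPM in sham_WT. All 3 groups overlapped. The log2 difference was -0.01 ± 0.20 between IR_WT and sham_WT (edgeR adjusted p = 0.988, 95% interval -0.45 to 0.43), with a sign that turned in 5 of the alternative fits, and 0.17 ± 0.20 between IR_Matn3_ko and IR_WT (0.765, 95% interval -0.27 to 0.61).

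Compared per length, the order of the 9 levels differed between groups. In IR_Matn3_ko, Cx3cl1 averaged 87.6 ± 4.43 FPKM and Cxcl14 23.8 ± 7.47 FPKM, and the remaining 7 ran from Cxcl16 at 3.30 ± 1.01 FPKM through Cxcl12, Cxcl1, Ackr3, Ccr1 and Cxcr4 to Cxcl2 at 1.22 ± 0.403 FPKM, each overlapping its neighbour (SD, n = 3). In IR_WT the order was Cx3cl1 at 110 ± 18.1, Cxcl14 at 33.8 ± 4.39 and Cxcl12 at 3.50 ± 0.514 FPKM, apart from one another, then Ackr3, Cxcl16, Cxcr4, Ccr1, Cxcl1 and Cxcl2, overlapping their neighbours between 1.94 and 0.303 FPKM. In sham_WT the means were 159 ± 14.9 FPKM for Cx3cl1, 36.6 ± 1.79 for Cxcl14, 7.69 ± 0.945 for Cxcl12, 3.57 ± 0.650 for Cxcr4, 1.82 ± 0.443 for Ackr3 and 0.325 ± 0.0998 for Cxcl16, all apart. Ccr1, Cxcl1 and Cxcl2 followed at 0.172, 0.112 and 0.0482 FPKM with overlapping neighbours. Cxcl16 thus had rank 3 in IR_Matn3_ko and rank 6 in sham_WT, and Cxcr4 rank 8 in IR_Matn3_ko and rank 4 in sham_WT.

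The other genes of the pathway were read from lists of related function. Of 11 other CXC, CX3C and XC ligands, 10 were in the table and 3 passed the filter, and none passed the test in either comparison. Cxcl10, an interferon-induced ligand of Cxcr3, had 7.29, 26.4 and 13.9 CPM in IR_Matn3_ko, 8.47, 13.2 and 1.47 CPM in IR_WT and 1.52, 2.32 and 1.86 CPM in sham_WT, and IR_WT overlapped sham_WT through IR_WT 3 alone. Its differences were 1.04 ± 0.65 between IR_Matn3_ko and IR_WT (edgeR adjusted p = 0.542) and 2.02 ± 0.69 between IR_WT and sham_WT (0.140, or 2.51 with 0.0279 without IR_WT 3 and 1.38 with 0.369 without IR_WT 2). Pf4, platelet factor 4, averaged 1.13 ± 0.323 CPM in IR_Matn3_ko, 0.226 ± 0.118 in IR_WT and 0.104 ± 0.150 in sham_WT (SD, n = 3 each). In edgeR it did not pass in IR_Matn3_ko against IR_WT (2.32 ± 0.78, adjusted p = 0.244) or in IR_WT against sham_WT (adjusted p = 0.545). Pf4 reached 0.5 FPKM only in the IR_Matn3_ko libraries (1.87, 1.07 and 1.40 FPKM), so it was tested only because of its level there.

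Of 20 other chemokine receptors, 8 were tested and 2 rose in IR_WT against sham_WT, where 2.54% of all genes tested rose. Cx3cr1, described above, was one of them. Against IR_WT, none of the 8 passed in IR_Matn3_ko. The most abundant of the 8 per length were Cx3cr1 and Ackr1, the atypical receptor of venules, which stood at 42.0 ± 1.14 CPM in IR_Matn3_ko and 33.4 ± 5.76 CPM in IR_WT (0.33 ± 0.13, adjusted p = 0.322). Cxcr5, Ccr6 and Ccr7, lymphocyte receptors looked at after their values had been seen, were high in IR_WT 1 and in sham_WT and low elsewhere, as the lymphoid markers were. Ccr7, for example, had 0.240, 0.688 and 0.281 CPM in IR_Matn3_ko, 11.5, 0.327 and 0.459 CPM in IR_WT and 10.2, 17.0 and 17.6 CPM in sham_WT.

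The enzymes that shed or cut chemokines did not pass in either comparison (6 of 6 tested). Adam10 and Adam17, which release Cx3cl1 and Cxcl16 from the cell surface, differed by 0.11 ± 0.08 (edgeR adjusted p = 0.463) and 0.16 ± 0.13 (0.544) between IR_WT and sham_WT, and by 0.11 ± 0.08 (0.587) and 0.25 ± 0.13 (0.435) between IR_Matn3_ko and IR_WT. Of 11 tested genes for receptor coupling and desensitization, 1 rose and 1 fell in IR_WT against sham_WT. Over all genes tested, 2.54% rose and 1.52% fell. Gnai3, an inhibitory G protein alpha subunit, rose by 0.35 ± 0.08 (edgeR adjusted p = 0.0401), and Grk2, a kinase that silences active receptors, fell by 0.39 ± 0.08 (0.0280). Both calls were lost in most fits that left out a library (held in 2 of 9 for Gnai3 and 3 of 9 for Grk2). They were also lost for Gnai3 and Grk2 with the set term (adjusted p = 0.175 and 0.0564), with no filter (0.0772 and 0.0606) and with the 2 groups alone (0.0578 and 0.0513), and for Grk2 in limma with either pseudocount (0.0725 and 0.0689). Between IR_Matn3_ko and IR_WT none of the 11 passed, and the most abundant, Gnb1 and Gnai1, differed by -0.05 ± 0.08 (adjusted p = 0.853) and -0.15 ± 0.09 (0.527).

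**Figure D4:**
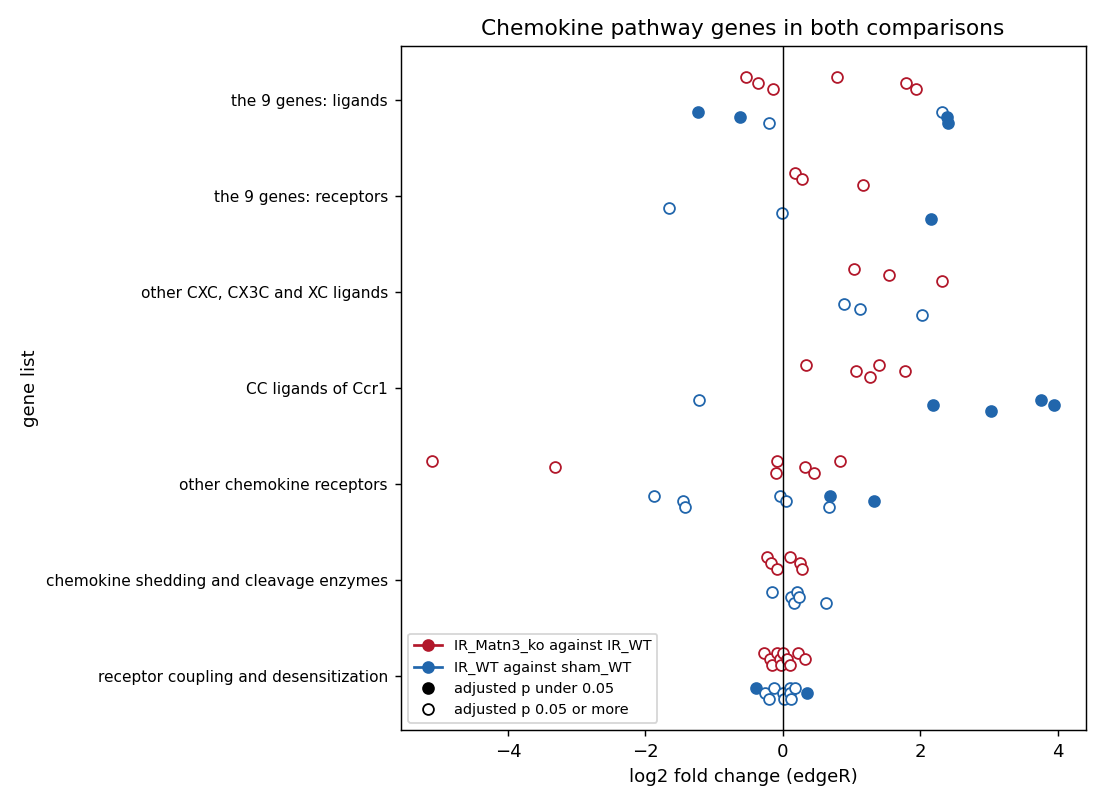
log2 fold change (edgeR, horizontal axis) of every tested gene of each list, with IR_Matn3_ko against IR_WT in the upper row of points and IR_WT against sham_WT in the lower, filled where the adjusted p was under 0.05. Ccr6 is not drawn for the knockout comparison, where all 3 IR_Matn3_ko libraries had no count. All filled points belong to IR_WT against sham_WT, and 4 of the 5 CC ligands of Ccr1 lie beyond 2.

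The genes whose levels ran most like each of the 9 across the 9 libraries were named by the smallest root mean square (RMS) difference in log2 CPM after centring, as a description over libraries that share groups and sets. Genes picked this way lie under the median over all genes by choice, so that median does not measure how close a match is. Cxcl1 ran closest to Lif (0.35) and Ctla2a (0.40), where the median over all genes was 1.76. Lif is an injury-induced cytokine. Cxcl2 was less closely matched, with Lyz2 (0.77), Lgals3 (0.80) and Tnf (0.84) nearest against a median of 1.92. Lyz2 and Lgals3 are myeloid genes and Tnf an inflammatory cytokine. Cxcl16 ran with Hk3 (0.18), Osmr (0.24) and Fcgr1 (0.28), and Ccr1 with Tlr13 (0.32), Angptl4 (0.33) and Plin2 (0.36), against medians of 1.41 and 1.43. Hk3, Fcgr1 and Tlr13 are myeloid genes, whereas Osmr, Angptl4 and Plin2 are not particular to myeloid cells.

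Cxcl12 ran with Lpar1 (0.17), Pllp (0.20) and Fzd10os (0.20), against a median of 0.71. Lpar1 and Pllp are expressed in oligodendrocytes. Cxcl14 ran with Plpp3, Gpr37l1 and Aldoc (each 0.08, median 0.49), which are astrocyte genes, and Cx3cl1 with Tuba4a (0.08), Qdpr (0.09) and Atp10a (0.10, median 0.48). Cxcr4 ran with Slfn1 (0.46) and Itgal (0.55, median 1.38), which are expressed in lymphocytes. Ackr3 varied little (an RMS spread of 0.21 about its own mean), and Clp1 (0.10), Rnf135 (0.10) and Zfp560 (0.11) were nearest.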

How the data were processed

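Cortex RNA from 9 mice was sequenced as poly(A)-selected, dUTP strand-marked libraries with molecular identifiers in paired reads, per the labels' protocols. The authors deposited 1 table with whole-number raw counts, not normalized, and FPKM values per library, per the file headers. The submitters' processing notes name HISAT2 2.0.4, StringTie 1.3.4d, edgeR, DESeq2, cutadapt 1.9 and UMI-tools, with no role given. The sources used here do not give whether counts are of molecules or reads, or use strand. The notes name a human build, but the identifiers are mouse, 37764 of 37893 are in GENCODE M21, and all 9 genes lie at identical coordinates there, so coordinates are GRCm38. Promoters came from RefSeq tables (GRCm38.p6), which matched 8 of the 9 genes.

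Counts were tested with edgeR 4.0.16 (R 4.3.3): TMM factors, glmQLFit and glmQLFTest, 1 model over 9 libraries with 6 residual degrees of freedom, and Benjamini-Hochberg adjustment over 17247 genes, checked on simulated counts. CPM are counts per TMM-scaled library total. SE is the log2 difference over the root of F. Marker sums are per unscaled total. A count of 0 allows up to 0.0439 to 0.0562 CPM (3 counts, counting error only). Alternatives used DESeq2 1.42.0, limma 3.58.1 on log2(FPKM + 1) and log2(FPKM + 0.1), other scalings, no filter, the 2 groups alone, a library set term (small-intestine markers over 10 CPM), a replicate block and each library left out.

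The 9 genes, lists and named genes were chosen with earlier results of these data known. Besides the 9, each list gave up to 4 genes past the threshold by size of difference, or where none passed the 2 highest by mean FPKM. The 3 genes nearest each of the 9 exclude clone and predicted names. A few genes that these rules name are not reported here. Several genes share a symbol for 78 symbols, and no symbol of the 9 genes or of the lists is among them. Libraries of a group differed beyond sampling noise, so none was merged.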

Additional observations from a re-analysis of the deposited data

How the results depend on the processing

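The groups share replicate numbers, but same-numbered libraries did not deviate together (correlations of -0.08, 0.00 and 0.02 between IR_WT and sham_WT, and of -0.14, 0.10 and -0.13 between IR_Matn3_ko and IR_WT). With the replicate block, 410 genes passed between IR_WT and sham_WT in place of 701, with 5 of the 9 genes, and 0 genes passed between IR_Matn3_ko and IR_WT. Of the genes named from the other lists, the block ended the calls in IR_WT of Cx3cr1 (adjusted p = 0.0584), Grk2 (0.0561) and Gnai3 (0.0717), and it changed no other call of a named gene.

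Between IR_WT and sham_WT, DESeq2 called 1664 genes, the fit with no filter 418 and the library set term 407, and fits leaving out 1 library called 242 to 996, lowest without sham_WT 1 (242), sham_WT 2 (315), sham_WT 3 (366) and IR_WT 2 (398). Of the 9 genes, 3 to 6 passed in those fits, and 2 in limma on log2(FPKM + 1). The share of calls that were higher was 62.5% and moved to 79.2% with no scaling, 75.7% and 81.3% in limma with pseudocounts of 1 and 0.1, 74.2% with no filter and 72.0% with the set term. Between IR_Matn3_ko and IR_WT, DESeq2 called 668 genes and 2 of the 9, limma 38 and 15, the set term 34, and fits leaving out 1 library 0 to 61, with 61 without the library labelled IR_Matn3_ko 2, 37 without IR_WT 1 and 0 of the 9 genes in each. The cause of these changes was not tested.

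Signs turned for 5 genes, none past the threshold in that comparison under edgeR with TMM factors. Ackr3 in IR_WT against sham_WT was 0.0672 with no scaling, 0.0671 in limma with a pseudocount of 1, 0.10 with 0.1, 0.21 without sham_WT 2 and 0.05 without IR_WT 1. In IR_Matn3_ko against IR_WT, Cxcr4 was 2.04 without IR_WT 1 and -0.19 without IR_WT 2, -0.12 without IR_WT 3 and -0.36 without IR_Matn3_ko 3. Leaving out IR_Matn3_ko 3 also turned Cxcl12 (0.0590, with -0.39 the lowest over such fits) and Cx3cr1 (0.0400), and no scaling turned Gnb1 (0.0234). Over all results, 323 values kept sign and side of the threshold when 1 library was left out, 27 lost the call, 3 gained it and 7 turned, and under the other settings 332 kept both, 18 lost, 6 gained and 4 turned. Depth limits Cxcl1, Cxcl2 and Cxcr2 in sham_WT, which rest on 4 to 18 counts a library.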
